A study of Arabidopsis thaliana with 12 samples.

Results

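The uppermost rosette axillary bud of Arabidopsis, bud n, was compared between a low and a high red to far-red ratio (R:FR) of the light. The 6 arrays whose titles name bud n, of the 12 arrays of the series, were taken: 3 under low R:FR and 3 under high R:FR. The other 6 arrays hold bud n-2, a lower rosette bud, with 3 arrays under each light. All plants were of the Col-8 line in a Col-0 background, with no transgene or mutation named, and were sampled at developmental stage 6.00. They grew singly in tubes in a divided chamber with equal temperature and light level on both sides, 18 h days at 185 micromoles of photons per square metre per second, with days of 24 °C and nights of 18 °C. The labels also list 3 days at 4 °C. The labels do not give the R:FR values, the length of the low R:FR treatment or the number of buds behind an array. They also do not say whether replicates were separate batches of plants, so the spread that p-values are set against may be technical. If each light had its own side of the chamber, side and light cannot be told apart here. The numbers in the array titles run in blocks by group, so an effect of their order could not be told apart either.

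Light reflected from or passed through neighbouring leaves is poor in red and rich in far-red. Phytochrome photoreceptors sense this ratio, and in Arabidopsis a low ratio promotes stem elongation and restrains the outgrowth of axillary buds. Abscisic acid, auxin, cytokinin and sugar supply are known to act on whether a bud stays dormant or grows out.

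Transcript levels were read with Affymetrix ATH1 arrays, on which a probe set is a group of short oligonucleotides for a transcript. The deposited value is an intensity on a linear scale, with every array scaled to the same trimmed mean of 100. The bud n arrays had median intensities of 37.9 to 38.9, and their log2 values correlated at 0.975 to 0.988. Replicate 1 under high R:FR stood apart, at 30.5 on the first principal component of the 6 arrays (31.1% of the variance), with the other 5 arrays at -11.3 to -0.87. The log2 ratio of the 3' to the 5' actin control probe sets, a measure of RNA quality, averaged 4.63 ± 0.15 under low R:FR and 4.31 ± 0.04 under high R:FR (SD, n = 3 each). The ranges did not overlap, with p = 0.1 by a two-sided exact permutation test (0.3 adjusted over the 3 control genes); no smaller p can come from 3 arrays a side. On all 6 arrays the 3' actin signal was far above the 5' signal, at log2 ratios of 4.27 to 4.79. For GAPDH the same ratio averaged 0.95 ± 0.08 under low R:FR and 0.87 ± 0.15 under high R:FR. For ubiquitin it averaged 1.57 ± 0.21 under low R:FR and 1.39 ± 0.18 under high R:FR (SD, n = 3 each). In both of these control genes the ranges overlapped. The part of these ratios in the results was not tested. Of 65 marker genes of meristem, leaf, flower, root and other cell types, 7 had a probe set with a single named gene. The leaf primordium genes YAB3 (202 to 222 over low and high R:FR arrays) and PHV (164 to 254) were well above background. The meristem genes CLV3 and LAS lay at or below their array's 40th percentile on all 6 arrays, and UFO and YAB5 did on 5 of 6.

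Few probe sets passed the test between low and high R:FR in bud n. Of 14295 probe sets tested with limma at a Benjamini-Hochberg adjusted p under 0.05, 10 rose (0.0700%) and 2 fell (0.0140%), 12 in all (0.0839%). All 12 had no overlap between the low and high R:FR arrays, which held for 11.6% of all tested probe sets (5.81% higher and 5.74% lower). The changes were small: the median absolute log2 change over all tested probe sets was 0.0922 in bud n and 0.160 in bud n-2. Differences of at least 2-fold numbered 55 in bud n, of which 7 passed the test, and 109 in bud n-2, of which 85 did. These counts, and those at a 2-fold threshold further below, take in dim values. The 7 include AT2G05540 and AT3G57010, each at background in a whole light group. The 55 also include AT5G02580 and PPDK, which lay almost wholly at background. The median standard error of a log2 change was 0.127, so small changes could have been missed. The bud n median of 0.0922 lies below it and cannot be told from noise. At an unadjusted p under 0.05, 428 probe sets were higher (2.99%) and 434 lower (3.04%), 862 in all (6.03%). With no true difference, a share close to the p threshold itself would be expected.

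The clearest rises were of probe sets that carry no gene name here. Probe set 245276_at had intensities of 67.1, 71.7 and 72.6 under low R:FR, against 11.8, 14.5 and 18.5 under high R:FR. It rose by 2.26 ± 0.15 (SE) on the log2 scale (adjusted p = 3.7e-07), and by 1.92 with dim values raised, since high R:FR replicates 1 and 2 lay at background. The rise passed in every one of 22 alternative settings tried. Probe set 259417_at had 127, 147 and 130 under low R:FR, against 27.5, 42.0 and 34.1 under high R:FR, a 3.95-fold rise (log2 1.98 ± 0.14, adjusted p = 3.7e-07). In both, every low R:FR array lay far above every high R:FR array. The other 4 unnamed probe sets past the threshold also rose.

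Among named genes, ARL (ARGOS-LIKE), which promotes organ growth through cell expansion, rose. Its intensities were 46.3, 56.1 and 47.6 under low R:FR, against 19.3, 29.3 and 26.7 under high R:FR. The lowest of the low R:FR arrays was well above the highest of the high R:FR arrays, and the change was 2.01-fold (log2 1.01 ± 0.15, adjusted p = 0.00876). The call was lost when the 6 bud n arrays were fitted alone (adjusted p = 0.105) and without low R:FR replicate 2 (adjusted p = 0.0727), and it held in the other 20 alternatives. In these bulk samples fewer cells of a type and less RNA per cell cannot be told apart, for this gene and for all others.

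The other 3 named rises are known here by locus only. AT4G19430 had 325, 351 and 355 under low R:FR, against 176, 212 and 233 under high R:FR, a 1.67-fold rise (log2 0.74 ± 0.12, adjusted p = 0.0120). AT4G28240 had 279, 240 and 254 under low R:FR, against 161, 188 and 156 under high R:FR, a 1.53-fold rise (log2 0.62 ± 0.11, adjusted p = 0.0444). These groups did not overlap, but AT4G28240 was near the threshold and passed in 7 of 22 alternatives. AT2G05540 had 13.3, 11.7 and 19.1 under low R:FR, against 7.08, 5.90 and 4.77 under high R:FR, and its change (log2 1.30 ± 0.23, adjusted p = 0.0301) lay among dim values. All 3 of its high R:FR arrays and low R:FR replicates 1 and 2 were at or below the 40th percentile of their array, a level of 18.1 to 19.1. With dim values raised to that level its change was -0.0026 (adjusted p = 0.999), so no fold is given.

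Both probe sets that fell have a named locus. AT5G62360 had 103, 97.3 and 97.7 under low R:FR, against 187, 160 and 153 under high R:FR, a fall by 0.74 ± 0.11 on the log2 scale (adjusted p = 0.00876). The 3 low R:FR arrays lay close together and all below the high R:FR arrays, and the call held in 20 of 22 alternatives. AT3G57010 had 11.9, 12.1 and 15.0 under low R:FR, against 22.0, 30.6 and 40.8 under high R:FR, and fell at least 1.65-fold (adjusted p = 0.0198). It was not well above background on any low R:FR array, and with dim values raised its adjusted p was 0.379.

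**Figure D1:**
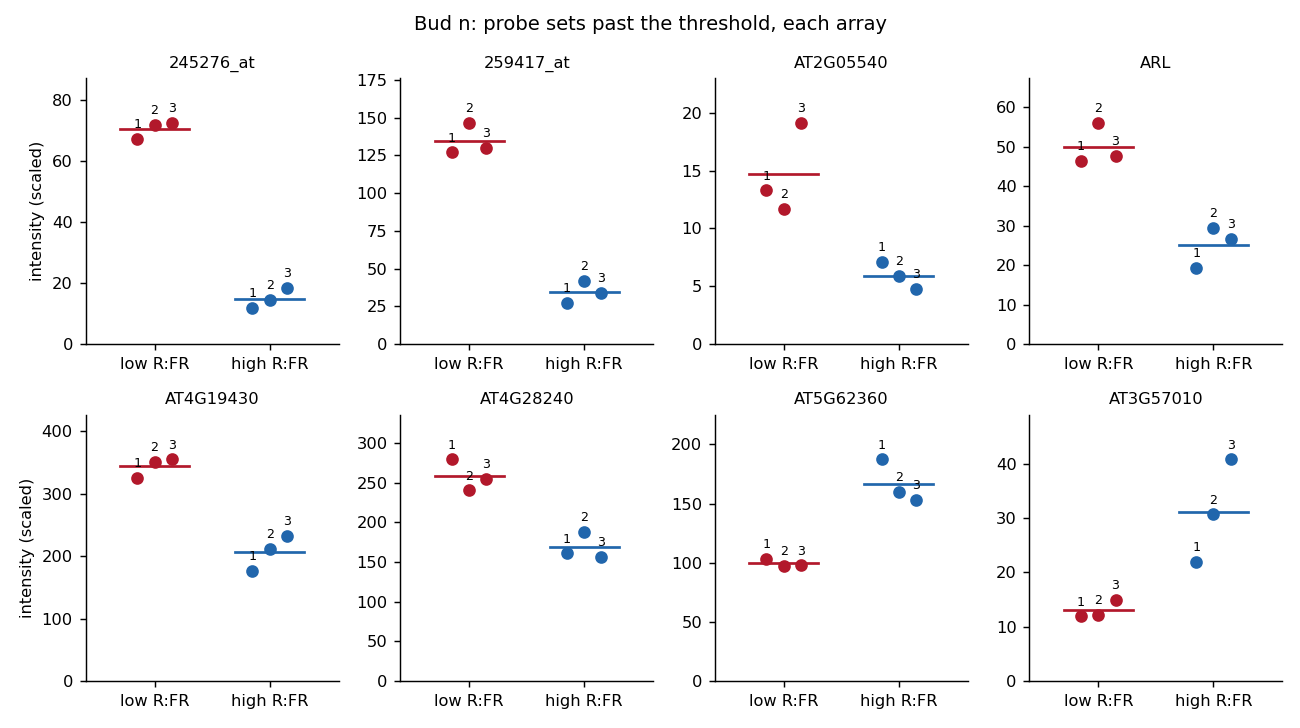
Intensity (linear scale, from 0) of the 2 clearest unnamed probe sets and the 6 named genes past the threshold, on each bud n array under low R:FR (left) and high R:FR (right). Points are arrays, numbered by replicate, and lines are means of 3. In every panel the 2 light groups do not overlap.

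Of the 24 named genes next in order of p, 12 were higher and 12 lower under low R:FR, with adjusted p-values of 0.0572 to 0.431. None passed the threshold. In all 24 the light groups did not overlap, which follows largely from ranking by p. AT4G25260 came closest, with 47.4, 59.0 and 46.2 under low R:FR, against 30.0, 32.1 and 29.0 under high R:FR (log2 difference 0.74 ± 0.14, adjusted p = 0.0572). Its high R:FR arrays were almost level, its difference in bud n-2 was 0.67, and it passed in 4 of 21 alternatives, with adjusted p-values of 0.0212 to 0.246. AT4G27450 had 348, 358 and 399 under low R:FR, against 265, 282 and 251 under high R:FR (0.47 ± 0.10, adjusted p = 0.0987).

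AT1G17490 had 382, 346 and 239 under low R:FR, against 209, 120 and 194 under high R:FR (0.90 ± 0.19, adjusted p = 0.105), with the lowest low R:FR array not far above the highest high R:FR array. Its bud n-2 difference was -0.04. AT5G02580, the greatest log2 difference among the 24 (2.91 ± 0.64, adjusted p = 0.143), lay at 19.4, 10.5 and 9.05 under low R:FR, against 0.507, 3.59 and 2.37 under high R:FR, almost wholly in the background. With dim values raised its difference was -0.0031. MYC3, a bHLH transcription factor of the jasmonate response, had 87.3, 105 and 100 under low R:FR, against 78.7, 64.2 and 73.6 under high R:FR (0.44 ± 0.11, adjusted p = 0.350). The remaining higher genes differed by 0.35 to 0.71 on the log2 scale. In 10 of the 12 higher genes the bud n-2 difference had the same sign.

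Of the 12 lower genes, 3 had a bud n-2 difference of the same sign. The share of equal signs over all tested probe sets is not given here, so the counts for higher and lower genes have no baseline. LCR66, a small cysteine-rich peptide of the defensin-like class, had 168, 172 and 96.2 under low R:FR, against 242, 262 and 315 under high R:FR (-0.95 ± 0.20, adjusted p = 0.115). AMS (ABORTED MICROSPORES), a bHLH factor needed for the tapetum of the anther, had 69.4, 53.4 and 46.2 under low R:FR, against 84.3, 83.6 and 101 under high R:FR (-0.69 ± 0.19, adjusted p = 0.431). Replicate 3 under low R:FR was lowest of the 3 low R:FR arrays in both genes, and AMS was above background on all 6 arrays.

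AT5G62080 had 652, 558 and 393 under low R:FR, against 942, 806 and 967 under high R:FR (-0.79 ± 0.18, adjusted p = 0.192). AT3G07450 had 260, 221 and 149 under low R:FR, against 377, 342 and 415 under high R:FR (-0.88 ± 0.21, adjusted p = 0.270). AT5G15140 had 19.6, 29.5 and 17.2 under low R:FR, against 32.1, 39.5 and 44.5 under high R:FR (-0.83 ± 0.21, adjusted p = 0.338). Each was again lowest in low R:FR replicate 3, as were 6 of the 9 lower genes whose bud n-2 difference was positive. That array was lowest of its group in 31.1% of all tested probe sets. AMS was the only 1 of the 7 anther and tapetum markers with a named probe set, and the part of anther tissue in these differences was not tested.

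GH9C2, a cell wall endoglucanase of glycosyl hydrolase family 9, had 134, 139 and 147 under low R:FR, against 220, 178 and 178 under high R:FR (-0.45 ± 0.12, adjusted p = 0.356). It fell by 0.70 in bud n-2 (adjusted p = 0.00126), with the same sign in both buds. PPDK, pyruvate phosphate dikinase, had 0.927, 1.19 and 1.79 under low R:FR, against 4.32, 2.45 and 8.23 under high R:FR, all below background, so no fold is given. AT4G26830 had the lowest log2 difference of all tested probe sets (-2.20, adjusted p = 0.431), and by limma it passed in 0 of 21 alternatives. Of the 24 genes, 3 were at background in a whole light group of bud n, so large log2 differences among them can rest on dim values.

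**Figure D2:**
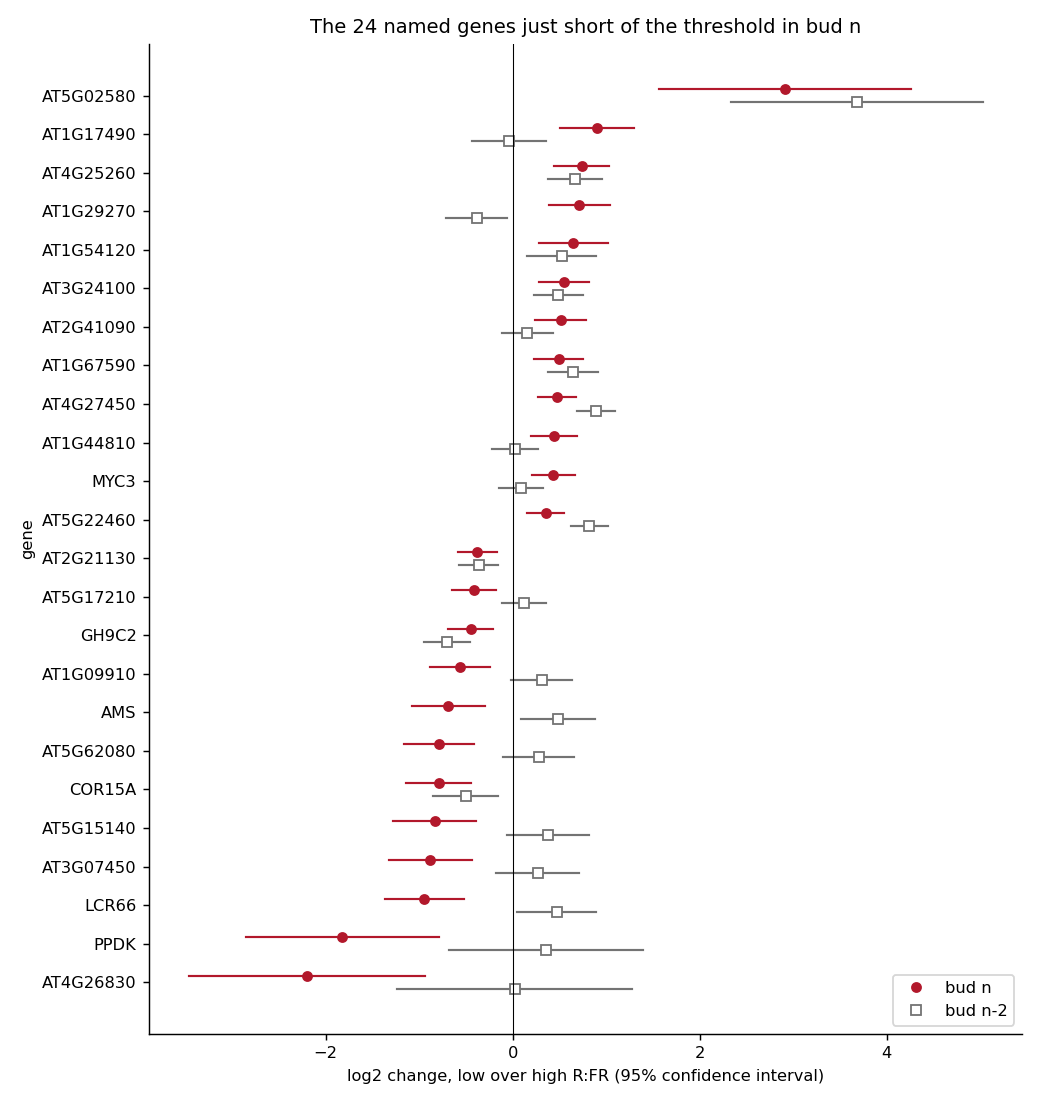
Log2 change, low over high R:FR, for the 24 named genes next in order of p in bud n. Filled circles are bud n and open squares bud n-2; bars are 95% confidence intervals of the limma fit, not adjusted for the number of genes. The higher genes mostly lie on the same side of 0 in both buds, whereas 9 of the 12 lower genes have bud n-2 differences above 0. No share over all tested probe sets is given to set these counts against.

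Gene lists and families were followed to see whether small differences ran together. They were chosen with earlier results of these data known, and some hold genes of the 24 above. Their counts and medians are therefore described and not tested. Their members are given beside the 14295 tested probe sets, whose median log2 difference was 0.0015 and of which 7216 were positive. Apart from ARL, no list or family member with a named, tested probe set passed the adjusted threshold in bud n. The 6 unnamed probe sets past the threshold could not be placed in any list or family.

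Genes of cold and abscisic acid response were mostly lower, but none passed. Of 6 tested members of the ABA response list, 5 were negative, the median was -0.41, and by limma 0 passed while 2 had an unadjusted p under 0.05. With dim values raised the median was -0.29. The positive member, HIS1-3, a linker histone induced by drought and named after its values were seen, had 2.75, 0.765 and 12.9 under low R:FR, against 0.690, 10.4 and 1.199 under high R:FR. All 6 of its arrays were at background (0.55 ± 0.83). COR15A, a chloroplast protein that protects membranes in cold and drought, had 422, 290 and 438 under low R:FR, against 534, 727 and 710 under high R:FR (-0.79 ± 0.17, adjusted p = 0.107). All low R:FR arrays were below all high R:FR arrays, and its bud n-2 difference was -0.50 (adjusted p = 0.0636). COR15A has a close copy, COR15B, and transcripts of the 2 may share probes; COR15B differed by -0.24 ± 0.16, by -0.03 without high R:FR replicate 2 and by -0.48 without high R:FR replicate 1.

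LTI30, a dehydrin, had 21.1, 13.8 and 30.1 under low R:FR, against 19.3, 60.6 and 50.3 under high R:FR (-0.92 ± 0.31, adjusted p = 0.608). LEA4-5, a late embryogenesis abundant protein, had 11.7, 10.5 and 25.3 under low R:FR, against 11.6, 27.3 and 32.8 under high R:FR (-0.58 ± 0.34). In both, high R:FR replicate 1, the array that stood apart, lay with the low R:FR arrays. It was the lowest high R:FR array in 5 of the 6 list members, against 40.6% of all tested probe sets. Without it the list median was -0.71, and over all arrays left out in turn the median ran from -0.71 to -0.25. LTI30 differed by -1.42 without it (adjusted p = 0.0147), by -0.60 without high R:FR replicate 2 and by -0.63 without low R:FR replicate 2, and it passed in 1 of 22 alternatives.

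Of the 4 genes with a COR name, COR15A, COR15B and COR47 are also on the ABA response list, so COR27 is the member that list does not hold. All 4 were negative with a median of -0.49, or -0.20 with dim values raised, and 2 had an unadjusted p under 0.05. COR27, a cold-induced regulator of the circadian clock, had 8.43, 14.4 and 10.6 under low R:FR, against 20.25, 15.5 and 18.8 under high R:FR (adjusted p = 0.461). All 3 low R:FR arrays and high R:FR replicate 2 were at background, so no fold is given, and with dim values raised the log2 difference was -0.07. It fell by 1.02 in bud n-2 (adjusted p = 0.00552). The dehydrin COR47 differed by -0.16. GI (GIGANTEA), the only clock gene tested and named after its values were seen, had 110, 120 and 130 under low R:FR, against 138, 177 and 169 under high R:FR (-0.42 ± 0.12, adjusted p = 0.473). Its groups did not overlap, and its bud n-2 difference was 0.01.

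**Figure D3:**
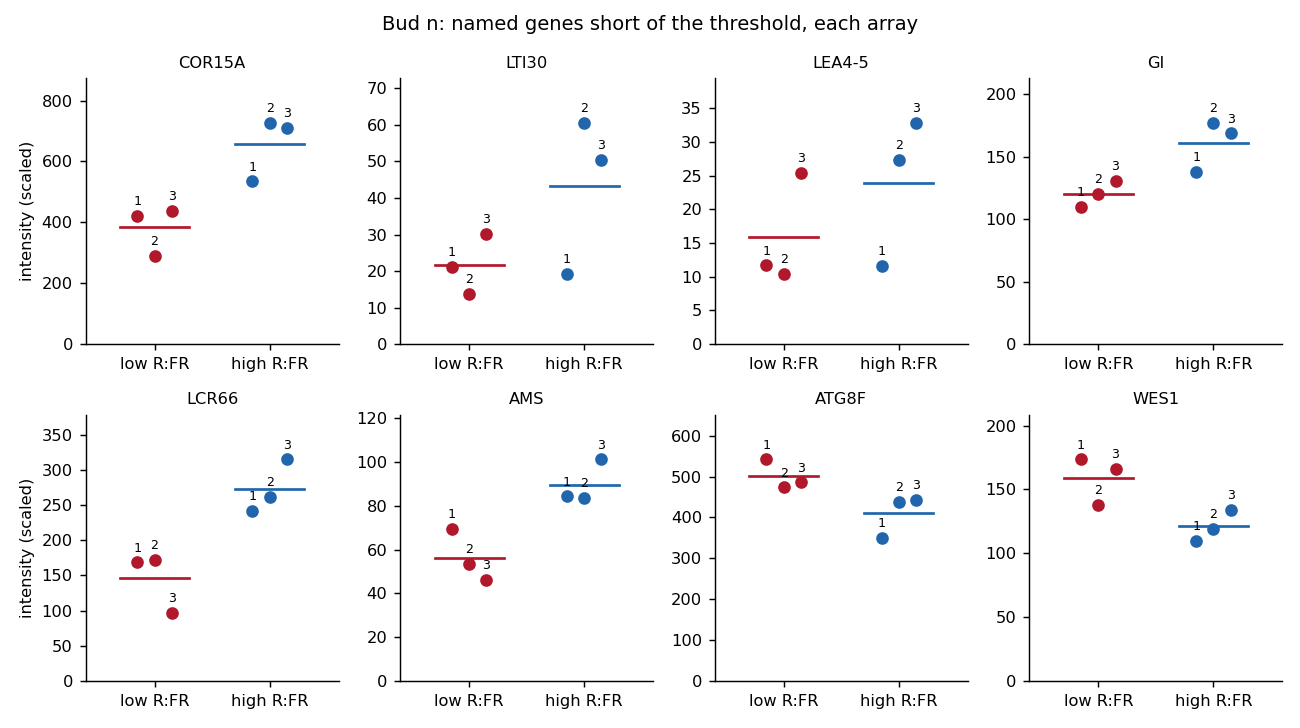
Intensity (linear scale, from 0) on each bud n array under low R:FR (left) and high R:FR (right) for 8 named genes that did not pass the threshold. Points are arrays, numbered by replicate, and lines are means of 3. High R:FR replicate 1 lies low in LTI30, LEA4-5 and ATG8F, and low R:FR replicate 3 lies low in LCR66 and AMS.

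Few of the genes that act in shade avoidance could be read. Of 39 listed, 5 were tested, all 5 were negative, the median was -0.09, and by limma 0 passed, with 0 at an unadjusted p under 0.05. The other listed genes had no probe set with a single named gene. Some may lie among the unnamed probe sets, including those that rose, so these 5 do not stand for the whole list. YUC2, an auxin synthesis enzyme, had 25.4, 22.6 and 21.3 under low R:FR, against 26.2, 24.7 and 28.3 under high R:FR (-0.20, 95% interval -0.56 to 0.17). HAT2, a homeodomain factor induced by shade and auxin in seedlings, had 117, 96.8 and 113 under low R:FR, against 109, 118 and 114 under high R:FR (-0.06, interval -0.29 to 0.16), and its groups overlapped. BIM1, a bHLH partner of brassinosteroid factors, differed by -0.09 (interval -0.35 to 0.17).

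Auxin response and conjugation genes leaned higher. Of 5 tested, 4 were positive, the median was 0.20, and by limma 0 passed while 2 had an unadjusted p under 0.05. WES1, a GH3 enzyme that joins auxin to amino acids, had 173, 138 and 166 under low R:FR, against 110, 119 and 134 under high R:FR (0.39 ± 0.12, adjusted p = 0.508). The groups did not overlap, and WES1 rose by 1.03 in bud n-2. IAA30, an Aux/IAA family protein, had 31.4, 29.5 and 27.6 under low R:FR, against 21.2, 19.9 and 20.21 under high R:FR (0.53 ± 0.22, adjusted p = 0.800). GH3.17, which also conjugates auxin, had 36.8, 29.0 and 35.7 under low R:FR, against 38.5, 37.9 and 47.9 under high R:FR (-0.29 ± 0.18, adjusted p = 0.919). Unlike WES1, it was lower on every low R:FR array.

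Only 2 of 46 listed cytokinin genes were tested. ARR15, a type-A response regulator induced by cytokinin, had 18.9, 21.5 and 18.4 under low R:FR, against 32.6, 31.0 and 30.6 under high R:FR (-0.68 ± 0.28, adjusted p = 0.796). Its groups did not overlap, at levels near background. RR16, another type-A regulator, differed by 0.05 ± 0.17. Of 5 gibberellin genes, 4 were positive with a median of 0.07. GID1A, a gibberellin receptor, had 102, 89.9 and 110 under low R:FR, against 68.8, 88.6 and 90.7 under high R:FR (0.29 ± 0.13, adjusted p = 0.805), and SLY1, an F-box protein that acts after the receptor, differed by 0.25 ± 0.12.

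Cell wall genes showed no common direction, with 3 of 9 positive and a median of -0.09. XTH16, a xyloglucan endotransglucosylase, had 546, 432 and 524 under low R:FR, against 379, 374 and 381 under high R:FR (0.40 ± 0.15, adjusted p = 0.714). EXGT-A3, of the same enzyme class, differed by 0.26 ± 0.11. The expansin EXPA15 had 247, 280 and 270 under low R:FR, against 323, 298 and 323 under high R:FR (-0.24 ± 0.10, adjusted p = 0.776), and it fell by 0.80 in bud n-2. All 6 tested GH9 endoglucanases were negative, with a median of -0.10, and besides GH9C2 none differed by more than 0.18.

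The SWEET sugar exporters leaned lower: 9 of 11 tested were negative, the median was -0.24, and 2 had an unadjusted p under 0.05. SWEET3 had 38.9, 56.2 and 20.4 under low R:FR, against 53.3, 62.8 and 62.0 under high R:FR (-0.74 ± 0.24, adjusted p = 0.594). Its groups overlapped through low R:FR replicate 2, while replicate 3 was far lower. That replicate was the lowest low R:FR array in 8 of the 11 family members, and without it the family median was -0.15. SWEET17, a fructose carrier of the vacuole, had 288, 324 and 257 under low R:FR, against 368, 305 and 349 under high R:FR (-0.24 ± 0.14).

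Of 7 genes of sugar and low-energy signalling, 3 were positive, with a median of -0.06. AKINBETA1, a subunit of the energy-sensing kinase SnRK1, had 171, 160 and 185 under low R:FR, against 142, 152 and 137 under high R:FR (0.26 ± 0.09, adjusted p = 0.712), and it rose by 0.73 in bud n-2. EXO (EXORDIUM), an extracellular protein tied to growth, had 475, 457 and 477 under low R:FR, against 415, 379 and 407 under high R:FR (0.23 ± 0.09, adjusted p = 0.714). Neither gene's groups overlapped. In the anthocyanin pathway, DFR had 37.8, 62.5 and 36.2 under low R:FR, against 113, 66.0 and 51.6 under high R:FR (-0.72 ± 0.27, adjusted p = 0.714), with overlap between the groups. Without high R:FR replicate 1 the DFR difference was -0.41. UF3GT, which adds a sugar to anthocyanins, differed by -0.38 ± 0.23.

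Autophagy genes leaned higher: 9 of 10 were positive, the median was 0.17, and 2 had an unadjusted p under 0.05. ATG8 proteins coat the membrane that engulfs cell contents. ATG8F had 542, 473 and 486 under low R:FR, against 349, 437 and 442 under high R:FR (0.29 ± 0.10, adjusted p = 0.596). ATG8B had 110, 96.7 and 111 under low R:FR, against 61.0, 87.9 and 102 under high R:FR (0.36 ± 0.14, adjusted p = 0.775). ATG8F did not overlap and ATG8B did. High R:FR replicate 1 was the lowest high R:FR array in 7 of the 10, and without it the family median was 0.10.

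Plastid-encoded genes of the photosystems, cytochrome complex and ATPase differed little, with 22 of 32 positive and a median of 0.05. psbN, needed in tobacco to assemble photosystem II, had 49.3, 43.1 and 42.0 under low R:FR, against 28.3, 30.2 and 31.9 under high R:FR (0.57 ± 0.16, adjusted p = 0.431). High R:FR replicate 1 was the lowest high R:FR array in 26 of the 32, low R:FR replicate 2 was the lowest low R:FR array in 23, and without high R:FR replicate 1 the median was -0.03. The 10 plastid NDH genes had a median of -0.01.

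Cell cycle genes were close to level. Of 5 genes of mitosis and cytokinesis, 3 were positive with a median of 0.10, and none had an unadjusted p under 0.05. The aurora kinase AUR1 had 280, 319 and 277 under low R:FR, against 345, 278 and 332 under high R:FR (-0.12, 95% interval -0.33 to 0.09), and AUR2 differed by 0.10 (interval -0.13 to 0.32). The spindle checkpoint gene BUB3.1 differed by 0.11 (interval -0.10 to 0.32). PRL (PROLIFERA), a subunit of the replication helicase, had 402, 425 and 443 under low R:FR, against 545, 428 and 444 under high R:FR (-0.15, interval -0.37 to 0.07), and 5 core histone genes had a median of 0.01. Changes inside these intervals could not be resolved with 3 arrays a side.

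**Figure D4:**
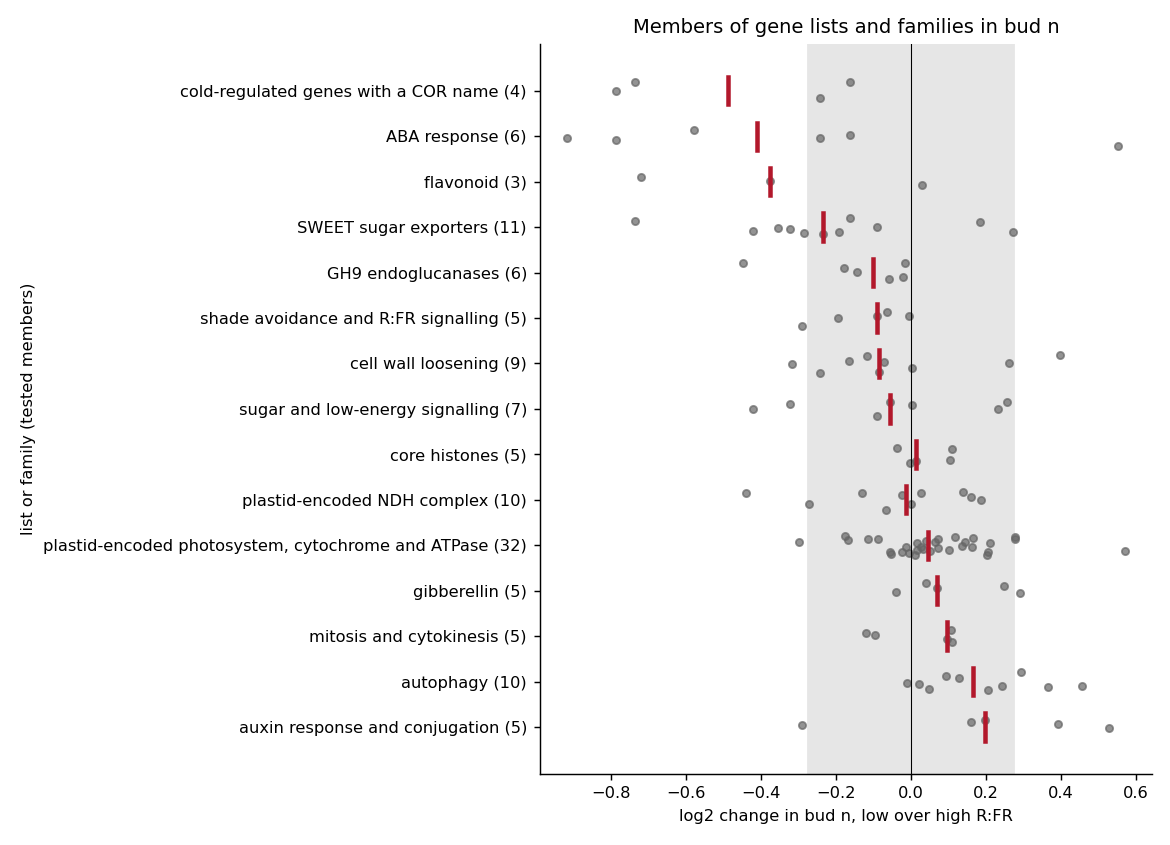
Log2 change in bud n, low over high R:FR, of each tested member (points) of 15 lists and families, with the number of members in brackets; vertical bars are medians, and the grey band spans the 5th to the 95th percentile of all tested probe sets (-0.28 to 0.28). Members of the cold and ABA lists reach below the band, the ABA list also has HIS1-3 above it at 0.55 on dim values, and auxin and autophagy members lie mostly above 0.

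The response of bud n was then set beside that of bud n-2. In bud n-2, 620 probe sets rose (4.34%) and 785 fell (5.49%), together 9.83%. Of the 12 called in bud n, all had the same sign in bud n-2, 11 passed there as well, and 7 changed more there than in bud n. The exception in bud n-2 was AT3G57010, at -0.27 (adjusted p = 0.446). AT5G62360 fell by 0.74 in bud n and by 0.73 in bud n-2. AT4G28240 rose by 0.62 in bud n and by 1.02 in bud n-2, a difference that did not pass (-0.40, adjusted p = 0.237). For AT4G19430 the difference between buds was 0.13 (adjusted p = 0.766). For AT2G05540 the difference had no settled sign. It was 0.43 (adjusted p = 0.563), and -0.87 with dim values raised (adjusted p = 0.0833). In bud n this gene was at background on all arrays but low R:FR replicate 3.

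The difference between the responses, bud n minus bud n-2, passed for 147 probe sets (1.03%), 98 positive (0.686%) and 49 negative (0.343%). These counts were unsteady: with no trend in the prior variance 0 passed (2038 at an unadjusted p under 0.05). Without low R:FR bud n replicate 1, 2 or 3, high R:FR bud n replicate 2 or 3, or low R:FR bud n-2 replicate 1 or 3, at most 12 positive and 7 negative ones passed. ARL was among them: it rose by 1.01 in bud n and by 1.95 in bud n-2 (difference -0.94, adjusted p = 0.0458). In bud n-2 its intensities were 214, 216 and 250 under low R:FR, against 61.7, 64.4 and 50.3 under high R:FR. Its low R:FR arrays lay above its high R:FR arrays in both buds, and the difference passed in 8 of 21 alternatives.

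In 4 further genes the bud n arrays of the light groups overlapped. AT1G21000 had 33.3, 34.1 and 29.3 in bud n under low R:FR, against 31.5, 33.1 and 37.8 under high R:FR. In bud n-2 it had 268, 325 and 372 under low R:FR, against 143, 134 and 122 under high R:FR, a difference between buds of -1.35 (adjusted p = 0.00614). AT4G14930 was alike, at 0.12 in bud n and 1.30 in bud n-2 (difference -1.18, adjusted p = 0.00614). AT5G41670 (0.02 in bud n, -0.77 in bud n-2) and AT3G05060 (0.06 in bud n, -0.69 in bud n-2) fell in bud n-2, with differences of 0.79 (adjusted p = 0.0107) and 0.75 (adjusted p = 0.0209).

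In 2 further genes the buds differed in sign. AT4G04940 had 120, 121 and 128 in bud n under low R:FR, against 117, 84.9 and 78.9 under high R:FR (0.41 ± 0.13), and it fell by 0.75 in bud n-2 (difference 1.16, adjusted p = 0.0220). AT1G07070 had 315, 305 and 309 in bud n under low R:FR, against 273, 262 and 270 under high R:FR (0.21 ± 0.10), and it fell by 0.60 in bud n-2 (difference 0.80, adjusted p = 0.0271). In both the bud n arrays did not overlap, though neither passed in bud n alone.

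**Figure D5:**
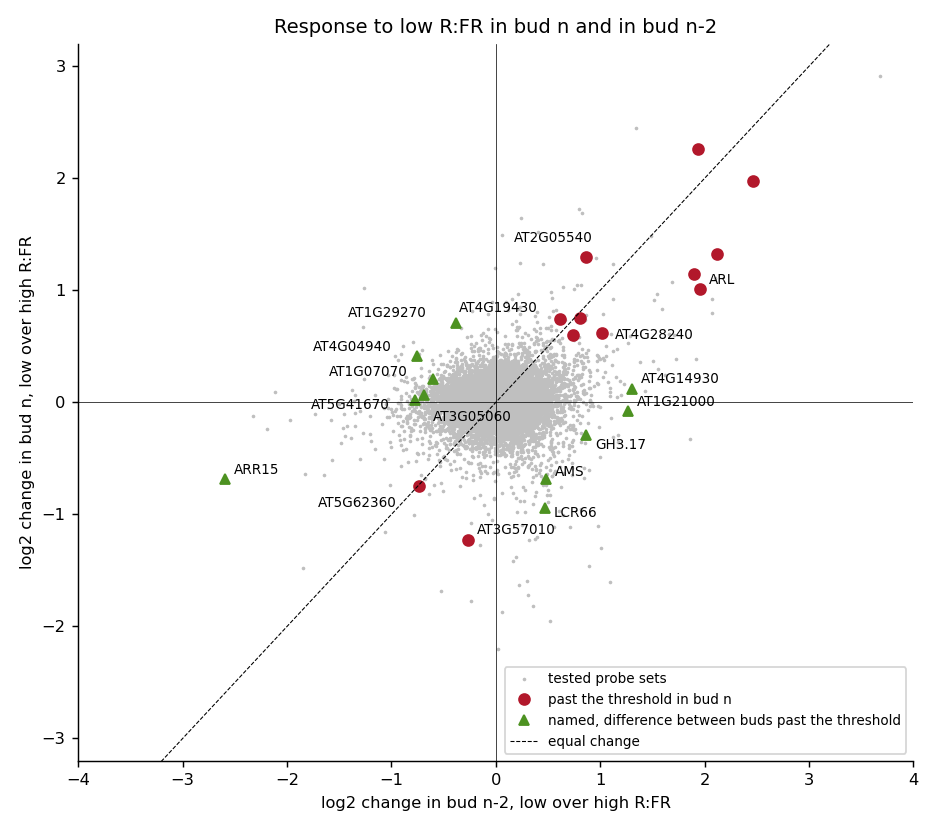
Log2 change, low over high R:FR, in bud n (vertical) against bud n-2 (horizontal) for 14295 tested probe sets (grey). Circles passed the threshold in bud n, triangles are named genes whose difference between buds passed (ARL, a circle, also did), and the dashed line marks equal change. The circles lie in the quadrants of equal sign. The triangles lie off the line because they were chosen by the difference between buds.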

How the data were processed

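Each deposited value is a linear intensity, made with MAS5 and GCOS per the submitters' processing notes (versions: not given in the sources used here). Values were log2-transformed with no offset. Of 22810 probe sets, 64 controls were left out, and a probe set was kept where 3 or more of the 12 arrays put it above their own 40th percentile, leaving 14295. limma 3.58.1 in R 4.3.3 fitted the means of 4 groups over all 12 arrays, which share the estimate of spread (eBayes with trend, 8 residual and 9.18 prior degrees of freedom). The Benjamini-Hochberg adjustment covered all 14295 probe sets. The fit was run on data simulated from its own model with normal noise. That run cannot show how the fit handles dim values or an array that stands apart. Standard errors are from the fit. The number of arrays limits the precision.

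A probe set at or below that percentile on all 3 arrays of a group is not well above background there. Only a lower bound of its fold is then printed, and none where the bound is under 1. This bound and the fit with dim values raised to the percentile were chosen after the data were seen.

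Platform annotation and the RefSeq gene table (TAIR10.1) gave a single gene to 13513 probe sets, several to 503 and none to 8794 (controls included). Of 7819 tested single-gene probe sets 7794 matched RefSeq, and where a gene had several, the brightest stands for it. Only 81 of 582 list genes had a named probe set, of which 65 passed the filter. The 4 lists auxin transport, ABA synthesis, bud dormancy and brassinosteroid had no tested member. The members and lists were chosen with earlier results of these data known, 10 families were added after the top results were seen, and wrongly matched symbols (CHI, some P450-like and defensin-like names) were removed afterwards. Named genes are those called, the next 24 by p, up to 4 members by p of lists with 2 or more tested, the leading unnamed probe sets, and up to 6 others by p of the difference between buds. GI and HIS1-3 fall outside this rule. No coordinates are printed, as the build behind the values was not stated.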

Additional observations from a re-analysis of the deposited data

Results flagged for a closer look

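In 12 named genes bud n and bud n-2 responded differently by limma's contrast of the 2 responses (bud n minus bud n-2, log2, adjusted p under 0.05). Negative differences were found for ARL (-0.94, adjusted p = 0.0458), AT1G21000 (-1.35), AT4G14930 (-1.18), LCR66 (-1.42, adjusted p = 0.0283), AMS (-1.17, adjusted p = 0.0426) and GH3.17 (-1.16, adjusted p = 0.0379). Positive differences were found for AT5G41670 (0.79), AT3G05060 (0.75), AT4G04940 (1.16), AT1G07070 (0.80), AT1G29270 (1.10, adjusted p = 0.0283) and ARR15 (1.91, adjusted p = 0.0338).

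LCR66 differed by -0.95 in bud n and 0.47 in bud n-2, and its difference between buds passed in 13 of 21 alternatives. AMS differed by -0.69 in bud n and 0.48 in bud n-2, and its difference passed in 9 of 21. AT1G29270 had 59.1, 84.4 and 76.1 in bud n under low R:FR, against 40.6, 44.6 and 47.7 under high R:FR (0.71 ± 0.15), and differed by -0.38 in bud n-2; the difference passed in 12 of 20. GH3.17, the auxin conjugating enzyme, differed by -0.29 in bud n and rose by 0.87 in bud n-2, and the difference passed in 11 of 21. ARR15 differed by -0.68 in bud n. In bud n-2 it had 7.01, 15.3 and 15.8 under low R:FR, all at background, against 48.8, 77.9 and 97.7 under high R:FR. With dim values raised its difference between buds was 0.99 (adjusted p = 0.0694).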

How the results depend on the processing

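The named genes past the threshold held in 20 of 22 alternatives for ARL and AT5G62360, 18 for AT4G19430, 12 for AT3G57010, 10 for AT2G05540 and 7 for AT4G28240. Of the 22, the 6 that leave out a bud n-2 array can change only the shared spread, not the size of the bud n change. Without low R:FR bud n replicate 2, ARL, AT5G62360, AT4G19430, AT3G57010 and AT4G28240 were all lost and 6 of the 12 probe sets remained. Without high R:FR bud n replicate 1, 9 remained, with 7 rises and 5 falls, and without high R:FR bud n replicate 2 or 3 falls numbered 1. With each array left out in turn, rises numbered 6 to 14, falls 1 to 5, positive differences between buds 0 to 159 and negative ones 2 to 105. Rises were 18 with array weights and 6 with a 2-fold threshold as well. Falls were 6 with array weights and 1 with 32 added, no filter, the 60th percentile, no trend, dim values raised or the 2-fold threshold. Positive and negative differences numbered 153 and 78 after quantile normalization, 63 and 27 with no filter, 299 and 145 with array weights, 17 and 18 with the 2-fold threshold, and 0 and 0 with no trend (limma, 2038 at an unadjusted p under 0.05). Negative ones were 112 with 32 added and 95 with dim values raised. The causes were not tested.

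No sign was seen that replicate numbers pair the arrays: deviations of same-numbered low and high R:FR arrays correlated at -0.0353, 0.013 and 0.0259. With 3 arrays a group this cannot settle whether they were paired. With the replicate block 11 rose and 2 fell, and 69 differences were positive and 36 negative.

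Of 1608 alternative values for 74 genes in bud n, 1604 kept their sign. Those that turned were AT2G05540 (-0.0026) and AT5G02580 (-0.0031) with dim values raised, HAT2 (0.0174) without low R:FR replicate 2, and RR16 (-0.0102) without low R:FR replicate 3. With each array left out HAT2 ran from -0.1188 to 0.0174 and RR16 from -0.0102 to 0.1221. The difference between buds of AT5G62360, near 0, turned to 0.0397 (quantile), 0.0157 (median centring), 0.0567 (32 added), 0.0748 (array weights) and ran from -0.0892 to 0.121 with an array left out. That of AT4G19430 turned to -0.0311 with array weights, and that of AT2G05540 to -0.3944 with 32 added and -0.8683 with dim values raised. COR15A and LCR66 passed in bud n only with array weights.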
